A study of Mus musculus with 7 samples.

Results

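The genes described here are 40 genes of the extracellular matrix other than collagens and laminins, of 25700 gene IDs in the deposited count files. They were chosen by name, with earlier results of these data known, and grouped into classes by what their proteins do. The classes were 10 adhesive and other glycoproteins, 16 genes of the elastic fiber, 7 small leucine-rich proteoglycans, 4 large proteoglycans and link proteins, and 3 lysyl oxidases. All 40 were found by gene symbol, and 39 had enough counts to be tested. Mfap5, a microfibril protein, was not tested because it had between 3 and 11 counts in each library.

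The RNA came from lower incisors of newborn mice (PN0), whose epithelium was freed with the protease Dispase. In the 4 K14;Nogo-A pups (replicates 1, 2, 7 and 10; genotype K14cre cre/+ with Nogo-A fl/fl) the Cre recombinase is driven by the keratin 14 promoter, so that deletion is directed to epithelial cells and other cells keep Nogo-A. The 3 wild-type pups (replicates 3, 8 and 9) are labelled only wt, and no Cre-only animals are among the samples. Each library is 1 pup with its left and right incisors pooled, and 1 more wild-type pup belonging to the study is not analysed here. The comparison asks which matrix genes were expressed differently once Nogo-A was deleted in the dental epithelium.

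The extracellular matrix is the meshwork of proteins and sugars that cells secrete around themselves. Fibronectin is laid down first and is bound by integrins, and other glycoproteins attach to it. Fibrillins form microfibrils, onto which elastin is deposited and which hold TGF-beta in store through the latent TGF-beta binding proteins. Small leucine-rich proteoglycans bind collagen and set the width of its fibrils, and lysyl oxidases crosslink collagen and elastin. In a tooth most of these genes are known from the mesenchyme (the pulp, the odontoblasts and the follicle around the tooth), while the epithelium itself secretes a basement membrane and later enamel.

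The libraries held between 20929207 and 41219439 counts. Members took 0.757 to 1.02% of all counts in K14;Nogo-A, against 1.13 to 1.25% in wild-type, and their summed level was 7777 to 9942 CPM (counts scaled to library size, with TMM factors) in K14;Nogo-A against 10741 to 12317 CPM in wild-type. These ranges did not overlap. Markers of epithelium were high in every library, with 8 genes summing to 8271 to 9879 CPM in K14;Nogo-A, against 6217 to 9895 CPM in wild-type. Markers of other cells were present as well. None of 16 mesenchyme markers (such as Prrx1, Pdgfra and Vim) was at 0, though Barx1 was close to it (0.369 to 0.619 CPM in K14;Nogo-A, 0.341 to 0.576 CPM in wild-type). The 8 odontoblast and bone markers (such as Dspp and Col1a1) summed to 9710 to 34691 CPM in K14;Nogo-A and 24755 to 42418 CPM in wild-type. Rtn4, the gene that encodes Nogo-A, averaged 327 ± 21.3 CPM in K14;Nogo-A (SD, n = 4) and 301 ± 39.1 CPM in wild-type (SD, n = 3), a value over the whole gene that takes in the shorter Nogo-B and Nogo-C forms and so does not check the deletion. Transcripts of 4 Y-linked genes were at high levels in K14;Nogo-A replicate 1 and wild-type replicates 3 and 8 and near 0 in the rest, so results are also given within each of these groups. Those results are differences in mean log2 CPM between the genotypes, not fitted fold changes. The sources do not give the sex of the pups.

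Matrix genes were on the whole lower in K14;Nogo-A. Of 39 tested members, 33 had a negative log2 fold change (84.6%, against 51.5% of all 14791 genes tested), and the median was -0.32 against -0.01 over all genes. The members were chosen with earlier results known, so their shares here are a description only. At an adjusted p under 0.05 (edgeR's quasi-likelihood test with Benjamini-Hochberg adjustment over all genes tested) 1 member fell, Fn1, where 0.0338% of all genes fell, and no member rose, where 0% of all genes rose. At the thresholds of the study (P of at most 0.05 before adjustment, together with a log2 fold change beyond 0.5 in either direction) 10 members were lower, or 25.6%, against 2.74% of all genes. They were Fn1, Cthrc1, Fbn1, Fbn2, Emilin1, Efemp1, Bgn, Lum, Ogn and Hapln1. With Y-linked transcripts as a term in the fit 7 were lower: Cthrc1 (log2 fold change -0.43), Efemp1 (-0.42), Emilin1 (-0.48), Hapln1 (-0.49) and Lum (-0.29) no longer passed, and Eln and Thbs2 did. In the other direction Mgp alone passed, against 2.02% of all genes. With no limit on the fold change 12 members were lower, Tnc and Mfap4 in addition, against 6.66% of all genes, and 1 was higher, against 6.25%. In 6 of the 39 tested members every K14;Nogo-A library was below every wild-type library, or 15.4%, against 6.09% of all genes. In 0 of the 39 every K14;Nogo-A library was above, against 5.43%. In RNA taken from many cells together, fewer cells of a type in the sample and less RNA per cell cannot be told apart.

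Markers of some of the surrounding tissues also had mostly negative fold changes, and their part in the members' differences was not tested. Of 16 mesenchyme markers 13 had a negative log2 fold change, against 51.5% of all genes, with a median of -0.33, close to that of the members. At the thresholds of the study 2 of the 16 were lower and 0 higher, against 2.74% and 2.02% of all genes. The summed level of the 16 markers was 1343 to 1547 CPM in K14;Nogo-A against 1822 to 2003 CPM in wild-type. Their mean log2 CPM differed by -0.28 (exact two-sided permutation test over 35 splits, p = 0.0286). That is the smallest p that 4 against 3 libraries can give. The permutation p-values of this list and of those below are a description only, since all the lists were chosen with earlier results known. All 6 endothelium markers had a negative fold change, with a median of -0.51, and at the thresholds of the study 4 were lower and 0 higher. Their sum was 123 to 196 CPM in K14;Nogo-A against 212 to 233 CPM in wild-type (exact permutation p = 0.0571 on the mean log2 CPM). The 8 odontoblast and bone markers all had a negative fold change, with a median of -0.84, but their ranges overlapped (exact permutation p = 0.143). Other lists did not share the direction: 3 of 6 smooth muscle and pericyte markers were negative (median 0.04), as were 3 of 6 Schwann cell markers (median -0.15) and 0 of 4 tested skeletal muscle markers (median 0.57). All 6 immune markers (median -0.38) and all 4 tested cartilage markers (median -0.39) were negative. Of 8 epithelium markers 7 had a positive fold change (median 0.13), as did all 6 ameloblast markers (median 1.32). The sums of both lists overlapped between the genotypes.

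**Figure D1:**
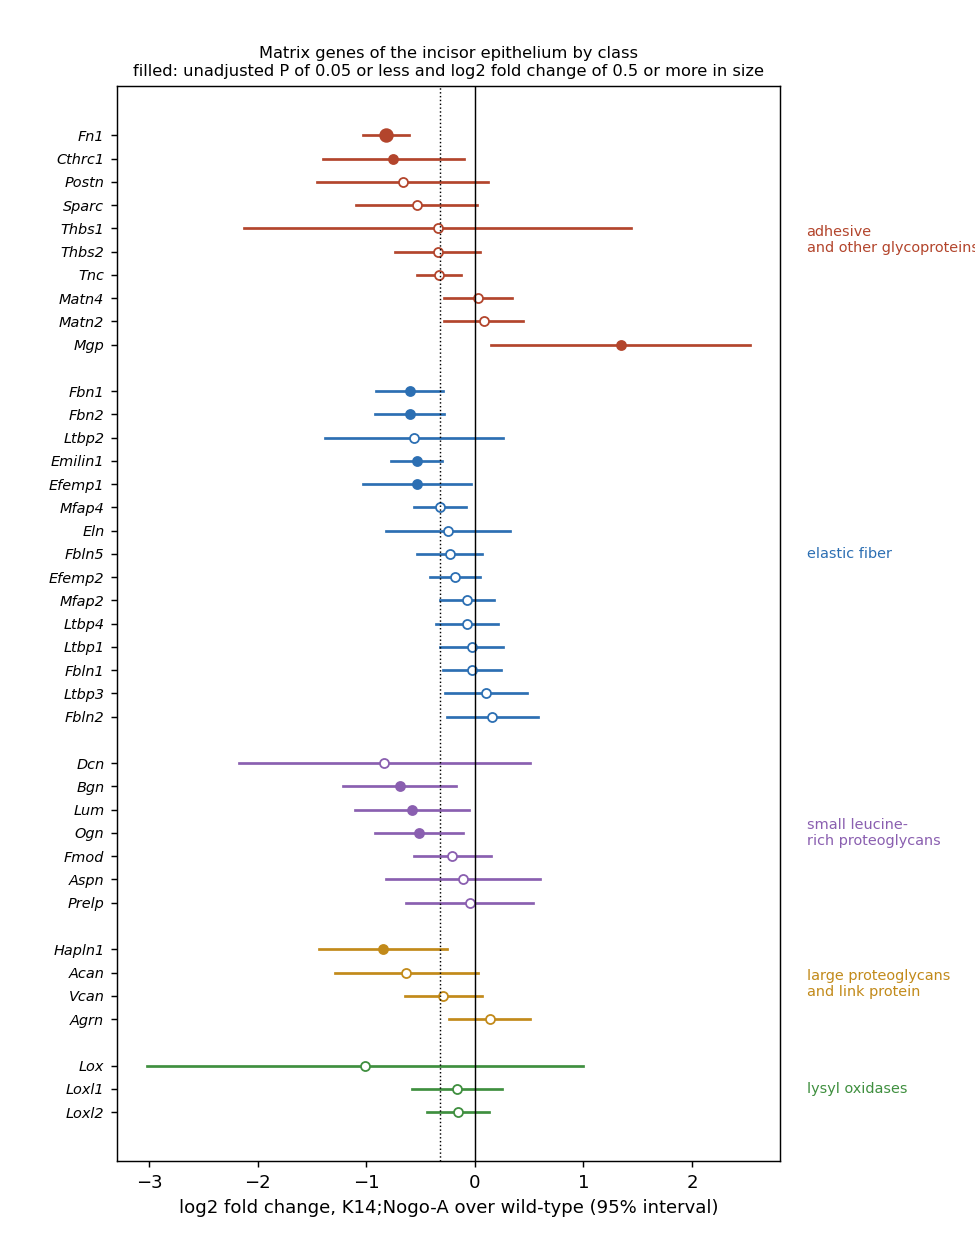
Log2 fold change of K14;Nogo-A (n = 4 pups) over wild-type (n = 3 pups) on the horizontal axis for the 39 tested members by class, with 95% intervals. Filled points passed the thresholds of the study, the larger filled point (Fn1) also passed at an adjusted p under 0.05, and the dotted line is the members' median of -0.32. Most points lie left of 0, and only Mgp is filled on the right.

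Levels differed widely between members. Per kb of exon, a scale on which genes can be compared with each other, Sparc was the most abundant member at 603 CPM per kb in K14;Nogo-A and 875 CPM per kb in wild-type. Sparc is a collagen-binding glycoprotein of mineralizing tissue and held 20.02 to 33.03% of the members' counts in K14;Nogo-A, against 25.2 to 33.5% in wild-type. Lum followed at 232 CPM per kb in K14;Nogo-A and 346 CPM per kb in wild-type, and then Mfap2 at 133 CPM per kb in K14;Nogo-A and 139.9 CPM per kb in wild-type. Fn1 stood twentieth of the 40, at 15.5 CPM per kb in K14;Nogo-A and 27.3 CPM per kb in wild-type. The lowest tested member was Acan, the large proteoglycan of cartilage, at 0.138 CPM per kb in K14;Nogo-A and 0.212 CPM per kb in wild-type.

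**Figure D2:**
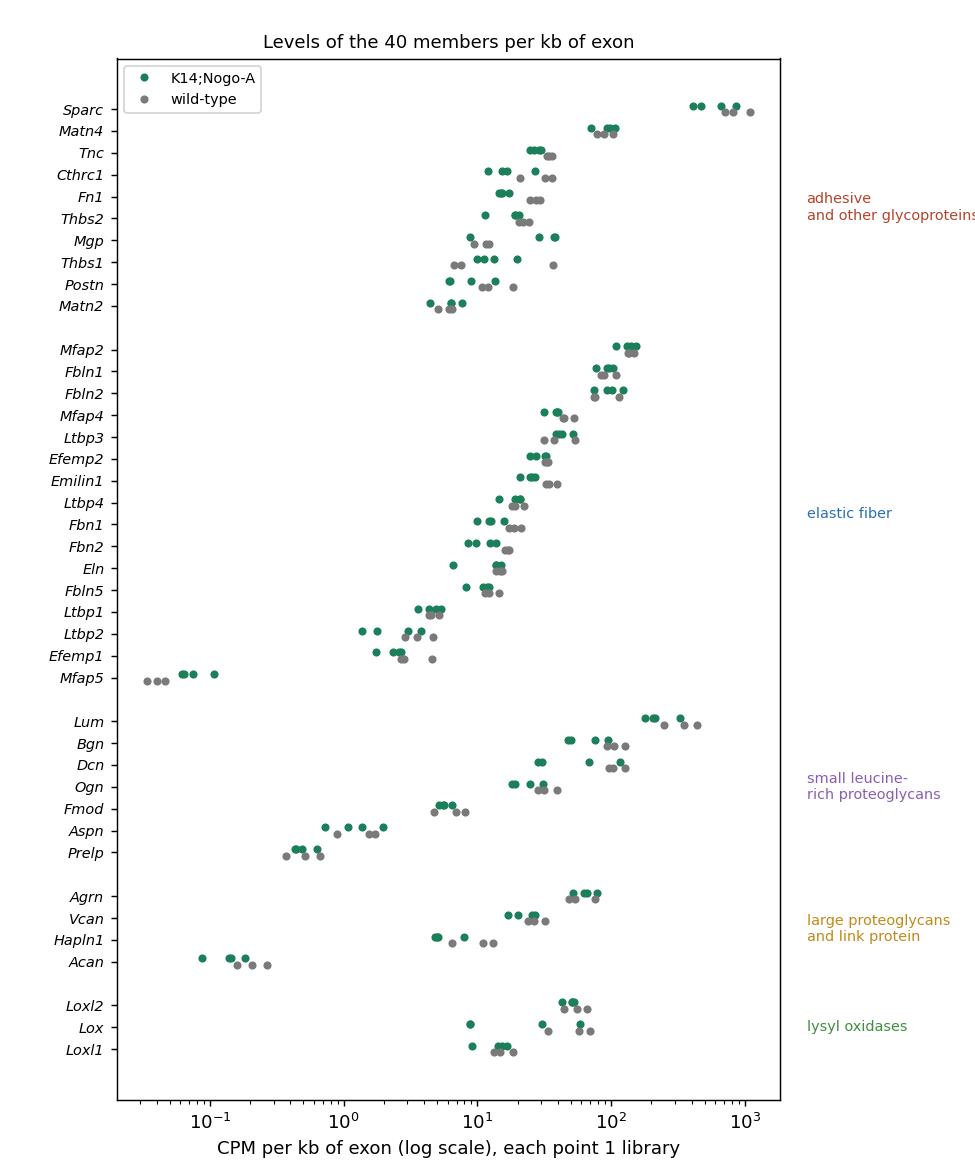
Level of each of the 40 members in CPM per kb of exon on a log axis, with 1 point per library, K14;Nogo-A drawn above wild-type in each row. Sparc is highest and Mfap5 lowest, and the points of Fn1, Fbn1, Fbn2, Emilin1, Tnc and Mfap4 are fully parted by genotype, with K14;Nogo-A lower. Those of Mfap5, which was not tested and had 3 to 11 counts per library, are parted the other way.

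Among the adhesive glycoproteins, Fn1, the gene of fibronectin (ENSMUSG00000026193, chromosome 1 of GRCm38, 71585520 to 71653200), had 177, 170.3, 175 and 202 CPM in K14;Nogo-A replicates 1, 2, 7 and 10, against 320.3, 345 and 291 CPM in wild-type replicates 3, 8 and 9. The libraries of each genotype lay close together, and the highest K14;Nogo-A value was well below the lowest wild-type value. The level fell to 56.8% of wild-type, a log2 fold change of -0.82 (SE, the standard error of the fold change, 0.098, 95% interval -1.03 to -0.60, adjusted p = 0.0276). The difference in mean log2 CPM was -0.91 among libraries with Y-linked transcripts and -0.68 among those without. The adjusted p passed 0.05 when any 1 of K14;Nogo-A replicates 2, 7 and 10 and wild-type replicates 3 and 8 was left out, and lay between 0.0768 and 0.188 there, with fold changes of -0.87 to -0.75.

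Tnc encodes tenascin-C, a large glycoprotein that binds fibronectin and is made at sites where epithelium and mesenchyme interact. It had 230.5, 192, 205 and 225 CPM in K14;Nogo-A, against 256, 268 and 280.1 CPM in wild-type. Again no library overlapped, but the gap was smaller than for Fn1, with a log2 fold change of -0.33 (SE 0.094, adjusted p = 0.225). The difference in mean log2 CPM was -0.19 among libraries with Y-linked transcripts and -0.44 among those without.

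Cthrc1, a secreted protein of collagen-forming cells, had 43.0, 19.0, 24.5 and 26.5 CPM in K14;Nogo-A, against 57.4, 51.4 and 33.3 CPM in wild-type. K14;Nogo-A replicate 1 lay above wild-type replicate 9, so the genotypes overlapped, and the log2 fold change was -0.75 (SE 0.28, adjusted p = 0.326). Without K14;Nogo-A replicate 1 it was -1.02 with an adjusted p of 0.038, while with any 1 of wild-type replicates 3 and 8 and K14;Nogo-A replicates 7 and 10 left out it was -0.72 to -0.59 and no longer passed the thresholds of the study. Sparc had 3269, 1557, 1792 and 2523 CPM in K14;Nogo-A, against 4130.0, 2705 and 3113 CPM in wild-type. Here too replicate 1 lay within the wild-type range while the other K14;Nogo-A libraries were below it, and the log2 fold change was -0.54 (SE 0.25, adjusted p = 0.402).

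Mgp went the other way. It encodes matrix Gla protein, an inhibitor of calcification, and had 10.4, 44.4, 45.1 and 34.2 CPM in K14;Nogo-A, against 14.5, 13.8 and 11.2 CPM in wild-type. The K14;Nogo-A libraries were split: replicates 2, 7 and 10 were above all wild-type libraries and replicate 1 was below them all. The log2 fold change was 1.34 (SE 0.49, 95% interval 0.15 to 2.53, adjusted p = 0.342). It was 1.64 with an adjusted p of 0.00151 when K14;Nogo-A replicate 1 was left out, and did not pass the thresholds of the study when any other library was (1.17 to 1.42). The difference in mean log2 CPM was -0.44 among libraries with Y-linked transcripts and 1.86 among those without. The sum of 6 ameloblast markers was also low in replicate 1 (31353 CPM) and high in replicates 2, 7 and 10 (79048 to 103530 CPM), against 12709 to 40468 CPM in wild-type, and its part in the Mgp values was not tested.

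The other glycoproteins gave no call. Postn and Thbs1 are described because of their values. Postn, periostin, which is made around teeth and in ligaments, had 54.3, 78.2, 117 and 53.1 CPM in K14;Nogo-A, against 105, 161 and 94.0 CPM in wild-type. Only K14;Nogo-A replicate 7 reached the wild-type range, and the log2 fold change was -0.67 (SE 0.33, adjusted p = 0.452). Thbs1, thrombospondin 1, which activates latent TGF-beta, had 80.2, 120.3, 67.5 and 60.6 CPM in K14;Nogo-A, against 225, 46.2 and 40.8 CPM in wild-type. A single library, wild-type replicate 3, was far above all others. The log2 fold change was -0.34 (SE 0.71, adjusted p = 0.873), and without wild-type replicate 3 it turned to 0.92 (adjusted p = 0.459). Thbs2 had -0.34 and the matrilins Matn2 and Matn4 had 0.08 and 0.03, with adjusted p-values of 0.444 to 0.953.

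**Figure D3:**
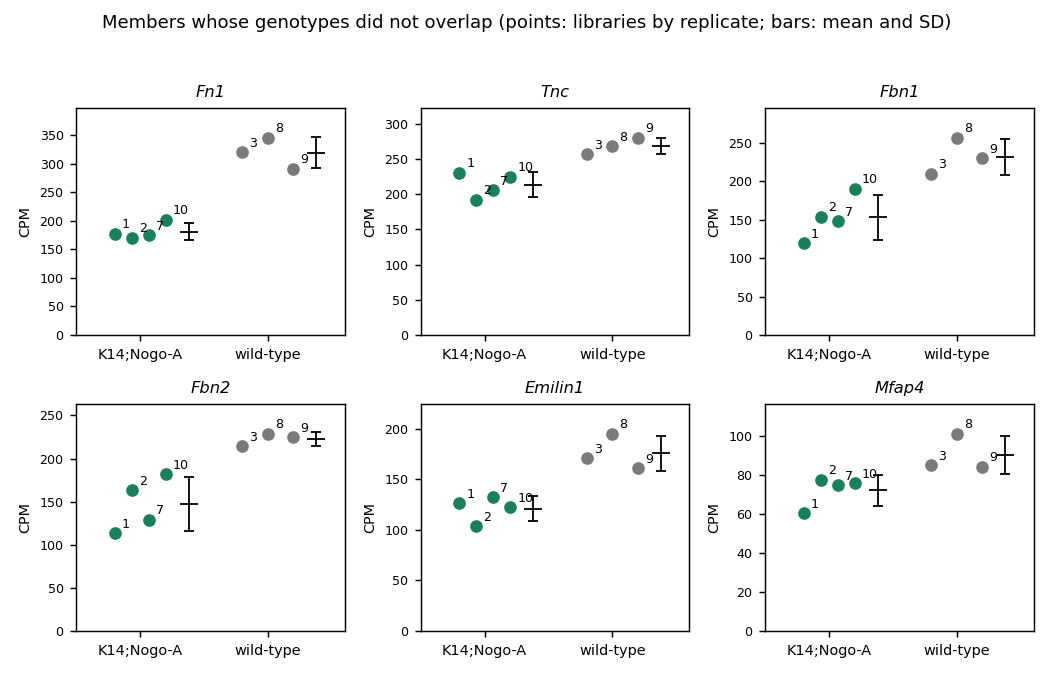
CPM of the 6 members in which every K14;Nogo-A library was below every wild-type library. Points are libraries, numbered by replicate, and bars beside them give the mean and SD (n = 4 K14;Nogo-A and n = 3 wild-type pups). Fn1 has the widest gap between the genotypes, from 202 CPM in the highest K14;Nogo-A library to 291 CPM in the lowest wild-type library.

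In the elastic fiber class, 13 of 15 tested members had a negative log2 fold change, against 51.5% of all genes, with a median of -0.23. At the thresholds of the study 4 of the 15 were lower, against 2.74% of all genes. Those with the smallest p-values were the fibrillins and Emilin1, proteins of the microfibril and of the surface between microfibril and elastin. Fbn1, fibrillin 1 (chromosome 2, 125300594 to 125507993), had 119.5, 154, 148 and 191 CPM in K14;Nogo-A, against 210.1, 257 and 229.8 CPM in wild-type. Fbn2, fibrillin 2, the form prominent in development, had 113, 163, 129 and 182 CPM in K14;Nogo-A, against 214, 229 and 225 CPM in wild-type. The genotypes did not overlap in either gene, and replicate 1 was the lowest and replicate 10 the highest K14;Nogo-A library in both. Their log2 fold changes were the same to 2 decimals, -0.60 (SE 0.14 each), and the adjusted p was 0.184 for each. Without K14;Nogo-A replicate 1 the fold changes were -0.4993 and -0.4944, under the limit of 0.5 in size.

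The difference in mean log2 CPM of Fbn1 was -0.96 in libraries with Y-linked transcripts and -0.49 in those without. That of Fbn2 was -0.97 in libraries with them and -0.52 in those without. Of the exon bases of Fbn1, 20.1% overlap the antisense gene Gm9913, and the sources do not state whether counting used strand. Gm9913 itself had 0 to 8 counts per library, against at least 2589 for Fbn1.

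Emilin1 (chromosome 5, 30913402 to 30921277) had 126, 103, 132 and 123 CPM in K14;Nogo-A, against 171, 195 and 161 CPM in wild-type. The genotypes did not overlap, and the level was 68.9% of wild-type (log2 fold change -0.54, SE 0.11, adjusted p = 0.152). Emilin1 had the smallest p among members after Fn1. Its difference in mean log2 CPM was -0.53 among libraries with Y-linked transcripts and -0.44 among those without. Without K14;Nogo-A replicate 1 the log2 fold change was -0.56 with an adjusted p of 0.0399. Leaving out wild-type replicate 8 (-0.45) or K14;Nogo-A replicate 2 (-0.47) put the fold change under the limit of 0.5 in size. Under edgeR's likelihood-ratio test, which called 0.73% of all genes as lower and 0.392% as higher, Emilin1, Fbn1 and Fbn2 were called beside Fn1. DESeq2, which called 1.05% as lower and 0.892% as higher, called Hapln1 as well, and limma-voom, which called 0.027% as lower and 0% as higher, called Fn1 alone.

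Efemp1, fibulin 3, was expressed at a low level, with 4.75, 5.26, 5.51 and 3.59 CPM in K14;Nogo-A, against 5.80, 9.35 and 5.47 CPM in wild-type. Only wild-type replicate 8 stood clearly above the rest, and the log2 fold change was -0.53 (SE 0.23, adjusted p = 0.356). Without wild-type replicate 8 it was -0.24, and it did not pass the thresholds of the study without that library, K14;Nogo-A replicate 1 (-0.53) or K14;Nogo-A replicate 10 (-0.42). Mfap4, a microfibril-associated protein described here because its genotypes did not overlap, had 60.3, 77.6, 74.8 and 75.9 CPM in K14;Nogo-A, against 85.1, 101 and 84.2 CPM in wild-type (log2 fold change -0.32, SE 0.11, adjusted p = 0.279). Mfap2, a microfibril protein and the most abundant member of the class per kb, had 131, 159, 184 and 169.9 CPM in K14;Nogo-A, against 165, 180.2 and 163 CPM in wild-type. Its K14;Nogo-A libraries lay on both sides of the wild-type range (log2 fold change -0.07, 95% interval -0.32 to 0.18, adjusted p = 0.823).

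Eln, the gene of elastin itself, described because 1 library stood apart, had 53.2, 112, 121 and 112 CPM in K14;Nogo-A, against 111, 123 and 119.6 CPM in wild-type. Replicates 2, 7 and 10 were at the wild-type level and replicate 1 was far below it, so that the log2 fold change of -0.25 (SE 0.25, adjusted p = 0.713) was -0.04 without replicate 1. Fbln2, fibulin 2, described because it had the highest fold change of the class, had 477, 648, 591 and 787 CPM in K14;Nogo-A, against 485, 471 and 724 CPM in wild-type (log2 fold change 0.16, 95% interval -0.26 to 0.58, adjusted p = 0.756). The genotypes overlapped. Of the latent TGF-beta binding proteins, Ltbp1, Ltbp3 and Ltbp4 had log2 fold changes of -0.07 to 0.10, while Ltbp2, which does not bind latent TGF-beta, had -0.56 (SE 0.35, adjusted p = 0.535). Fbln1, Fbln5 and Efemp2, the last 2 of which are needed for elastin assembly, had -0.02, -0.23 and -0.18, with adjusted p-values of 0.48 to 0.951.

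All 7 small leucine-rich proteoglycans had a negative log2 fold change, against 51.5% of all genes, with a median of -0.51. At the thresholds of the study 3 were lower, against 2.74% of all genes. In 0 of the 7 was every K14;Nogo-A library below every wild-type library, against 6.09% of all genes, and 7 genes are too few to set against that share. Bgn, biglycan, abundant in bone and dentin (chromosome X, 73483602 to 73495933), had 574, 290.5, 304 and 463 CPM in K14;Nogo-A, against 771, 573 and 636 CPM in wild-type. Replicates 2, 7 and 10 were below all wild-type libraries and replicate 1 was just above the lowest of them. The log2 fold change was -0.69 (SE 0.23, adjusted p = 0.286), and without K14;Nogo-A replicate 1 it was -0.90 with an adjusted p of 0.0453. It was -0.57 when wild-type replicate 3 was left out and -0.71 when wild-type replicate 9 was, and neither passed the thresholds of the study.

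Lum, lumican, a keratan sulfate proteoglycan, had 803, 441, 504 and 519 CPM in K14;Nogo-A, against 859, 1074 and 605 CPM in wild-type. Replicate 1 again lay within the wild-type range and the other K14;Nogo-A libraries below it (log2 fold change -0.58, SE 0.23, adjusted p = 0.344). It was -0.37 without wild-type replicate 8, and it no longer passed the thresholds of the study without that library, wild-type replicate 3, or K14;Nogo-A replicate 2, 7 or 10 (-0.57 to -0.48). Its neighbour on chromosome 10, Dcn, decorin, whose protein binds collagen and TGF-beta and which is described because of its spread, lies 47.0 kb away. Dcn had 677, 166, 179 and 401 CPM in K14;Nogo-A, against 735, 602 and 566 CPM in wild-type. The highest K14;Nogo-A library had over 4 times the level of the lowest, and the log2 fold change of -0.84 had an SE of 0.54 (adjusted p = 0.566). The difference in mean log2 CPM was 0.02 among libraries with Y-linked transcripts and -1.31 among those without.

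Ogn, osteoglycin or mimecan, which lies 40.5 kb from Aspn on chromosome 13, had 46.7, 63.0, 79.7 and 49.2 CPM in K14;Nogo-A, against 80.3, 101 and 73.5 CPM in wild-type. Only replicate 7 reached the wild-type range, so the order of the K14;Nogo-A libraries differed from that in Bgn, Lum and Dcn (log2 fold change -0.51, SE 0.18, adjusted p = 0.295). With any 1 of wild-type replicate 8 and K14;Nogo-A replicates 1 and 10 left out it was -0.43 to -0.36 and did not pass the thresholds of the study. Aspn, asporin, an inhibitor of TGF-beta, had a log2 fold change of -0.11 at 1.71 to 4.67 CPM in K14;Nogo-A and 2.11 to 4.03 CPM in wild-type. The pair on chromosome 1, Fmod and Prelp, had -0.21 and -0.05. The adjusted p-values of these 3 were 0.615 to 0.958.

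**Figure D4:**
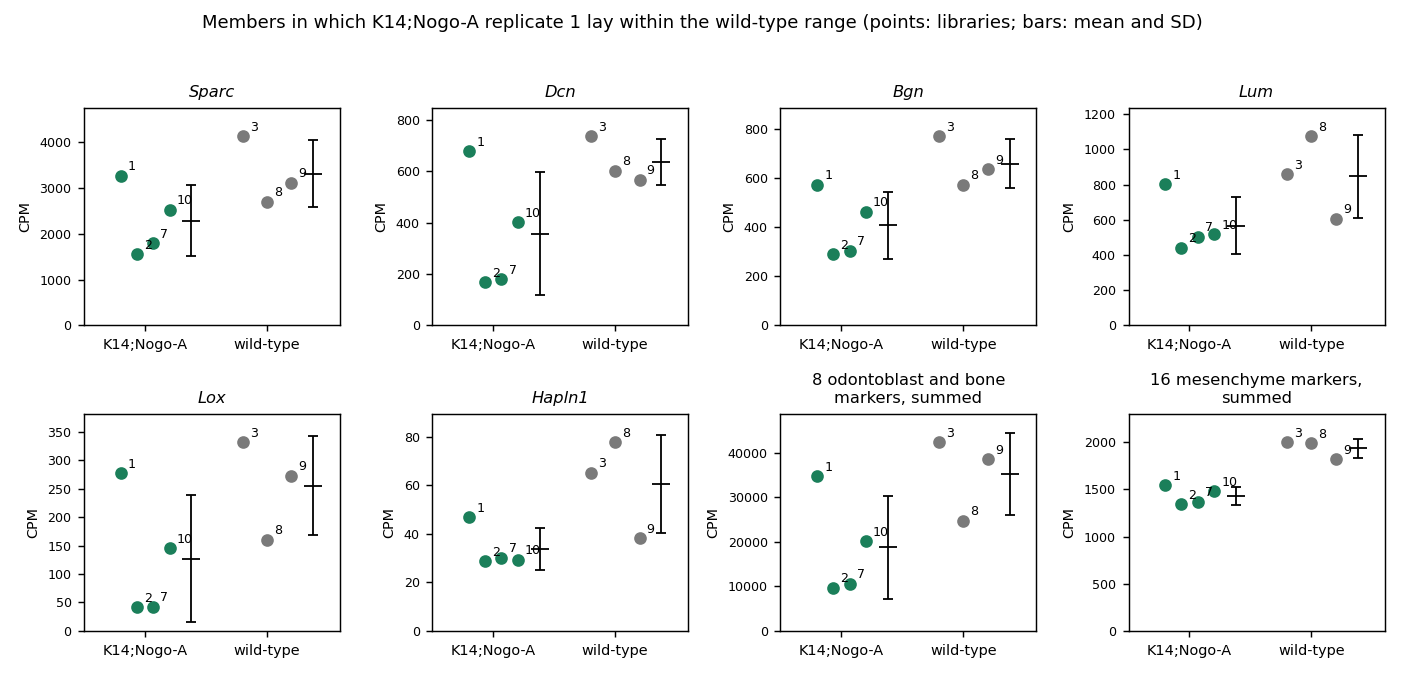
CPM of 6 members in which K14;Nogo-A replicate 1 lay within the wild-type range, beside the summed CPM of 8 odontoblast and bone markers and 16 mesenchyme markers. Points are libraries, numbered by replicate, and bars beside them give the mean and SD (n = 4 K14;Nogo-A and n = 3 wild-type pups). Within K14;Nogo-A the odontoblast and bone sum is highest in replicate 1 (34691 CPM) and lowest in replicate 2 (9710 CPM), with wild-type at 24755 to 42418 CPM, while the mesenchyme sum parts the genotypes.

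The large proteoglycans and link proteins form the hyaluronan-rich part of the matrix, with agrin in basement membranes. Hapln1, the link protein that fixes proteoglycans to hyaluronan, had 46.9, 28.6, 30.1 and 29.2 CPM in K14;Nogo-A, against 65.0, 77.7 and 38.2 CPM in wild-type. Replicate 1 of K14;Nogo-A was above wild-type replicate 9 and the other K14;Nogo-A libraries were below all wild-type libraries (log2 fold change -0.85, SE 0.26, adjusted p = 0.268). Vcan, versican, which Hapln1 binds and which lies beside it on chromosome 13, had 247, 369, 292 and 389 CPM in K14;Nogo-A, against 382, 466 and 344 CPM in wild-type. The genotypes overlapped (log2 fold change -0.29, SE 0.16, adjusted p = 0.466), and replicate 1 was the lowest library in Vcan where it was the highest of its genotype in Hapln1. Acan had 0.646, 1.37, 1.08 and 1.03 CPM in K14;Nogo-A, against 1.55, 2.00 and 1.20 CPM in wild-type (log2 fold change -0.63, SE 0.30, adjusted p = 0.408). It rests on as few as 14 counts in a library. Agrn, agrin, was the most abundant of this class per kb, with 484, 611, 587 and 733 CPM in K14;Nogo-A, against 451, 494 and 702 CPM in wild-type, and the genotypes overlapped (log2 fold change 0.14, 95% interval -0.24 to 0.51, adjusted p = 0.77).

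The lysyl oxidases gave no call, and Lox was the most variable of the 3. Lox had 278, 41.7, 42.2 and 145 CPM in K14;Nogo-A, against 332, 161 and 273 CPM in wild-type. Replicates 2 and 7 were several times lower than every wild-type library, and replicate 1 was within the wild-type range. The log2 fold change of -1.01, the lowest of all members, had an SE of 0.80 (95% interval -3.02 to 0.99, adjusted p = 0.644). The difference in mean log2 CPM was 0.27 among libraries with Y-linked transcripts and -2.11 among those without. Loxl2, which also crosslinks basement membrane collagen and was the most abundant of the class per kb, had 232, 276, 275 and 287 CPM in K14;Nogo-A, against 300.3, 239.8 and 354 CPM in wild-type (log2 fold change -0.16, SE 0.13, adjusted p = 0.646). Loxl1, which acts mainly on elastin, had 30.3, 47.1, 50.5 and 55.0 CPM in K14;Nogo-A, against 44.2, 48.9 and 60.8 CPM in wild-type (log2 fold change -0.16, SE 0.19, adjusted p = 0.75). Both overlapped between the genotypes.

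In some members of several classes the K14;Nogo-A libraries followed 1 of a pair of contrasting orders, which were seen in the values and were not tested, and 20 of 39 members followed neither. In 9 members, or 23.1% against 6.46% of all genes (Sparc, Cthrc1, Efemp2, Ltbp2, Dcn, Bgn, Lum, Hapln1 and Lox) replicate 1 was not below the wild-type range while replicates 2 and 7 were below every wild-type library. The summed odontoblast and bone markers had the same order, with 34691, 9710, 10591 and 20150 CPM in K14;Nogo-A replicates 1, 2, 7 and 10, against 24755 to 42418 CPM in wild-type. The sum in replicate 1 was within the wild-type range and the sums in the other K14;Nogo-A libraries were below it, and its part in these 9 members was not tested. In 10 other members, or 25.6% against 8.63% of all genes (Matn2, Matn4, Mgp, Fbln1, Eln, Ltbp1, Ltbp4, Aspn, Loxl1 and Loxl2) the reverse held, with replicate 1 below every wild-type library and no other K14;Nogo-A library below them all. The smooth muscle and pericyte sum had this reverse order. It was 313 CPM in replicate 1 and 386 to 440 CPM in the other K14;Nogo-A libraries, against 352 to 452 CPM in wild-type. So did the skeletal muscle sum, at 3.51 CPM in replicate 1 against 7.16 to 12.8 CPM in wild-type. The part of these lists in the 10 members was not tested. The sum of 6 endothelium markers did not have this order. It was lowest in replicate 1, at 123 CPM, but the other K14;Nogo-A libraries (131 to 196 CPM) were also below wild-type (212 to 233 CPM). Replicate 1 was the lowest K14;Nogo-A library in 23 of 39 members and the highest in 10. The mean log2 CPM of the members was 6.13, 6.18, 6.26 and 6.34 in K14;Nogo-A replicates 1, 2, 7 and 10, against 6.58, 6.53 and 6.48 in wild-type replicates 3, 8 and 9.

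**Figure D5:**
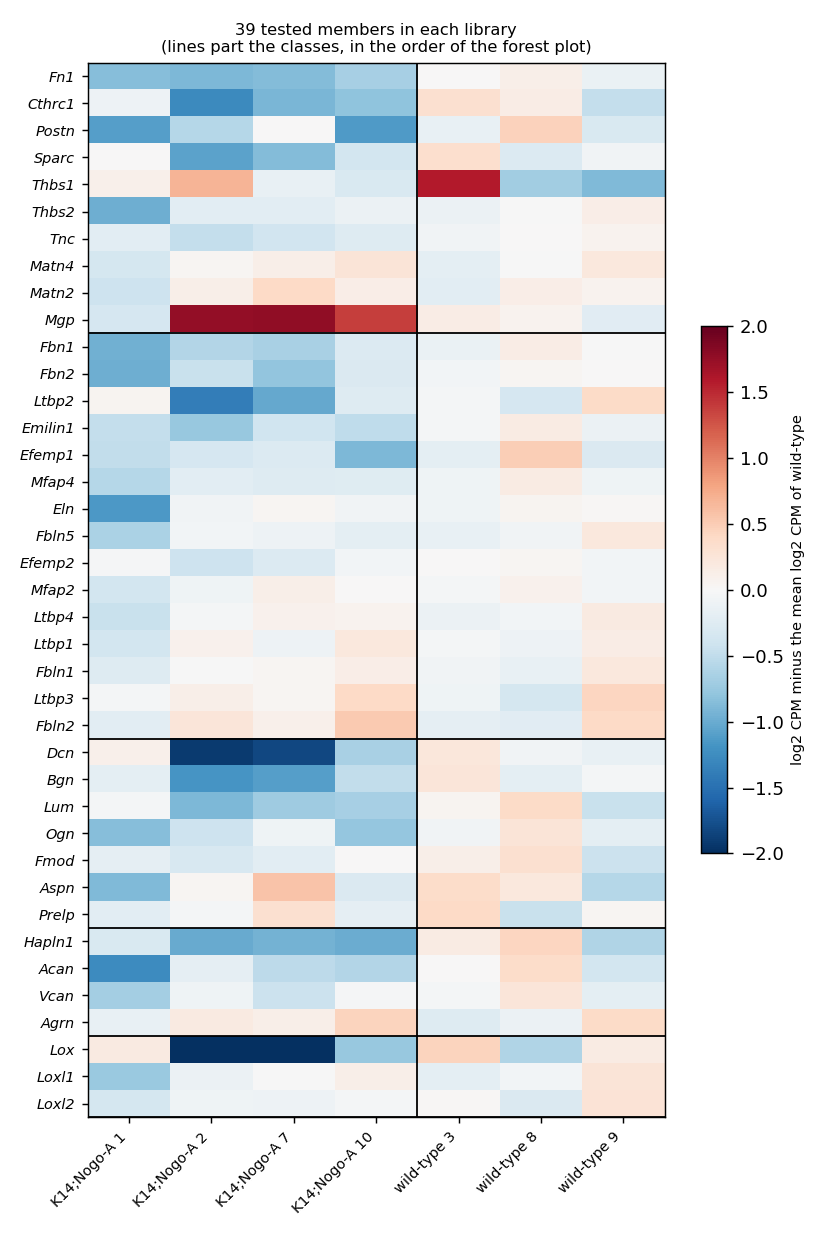
Log2 CPM of the 39 tested members in each library, less the mean log2 CPM of the 3 wild-type libraries, with blue for lower and red for higher and colours held at -2 and 2, a limit that Lox passes in replicates 2 and 7. The row of Fn1 is evenly blue over the 4 K14;Nogo-A libraries, while Dcn, Bgn and Lox are blue in replicates 2 and 7 and near white or red in replicate 1.

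K14;Nogo-A replicate 1 is the only library of its genotype with Y-linked transcripts, so the 2 features cannot be told apart. Among libraries with Y-linked transcripts (1 K14;Nogo-A and 2 wild-type) 34 of 39 members had a negative difference, with a median of -0.37, and among those without (3 K14;Nogo-A and 1 wild-type) 32 had one, with a median of -0.23. In 27 members the difference was negative in both. With 1 library on one side of each comparison these are values with no test.

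Matrix genes outside the 40 also had mostly negative fold changes. Of 33 tested other matrix glycoproteins 27 did, with a median of -0.23. At the thresholds of the study 8 of them were lower and 0 higher, against 2.74% and 2.02% of all genes, and none was called at an adjusted p under 0.05. Those with the smallest p-values were Aebp1 (a collagen-binding protein, log2 fold change -0.52), Ccn1 (a matricellular integrin ligand, -0.77), Emilin2 (-0.59), Thbs3 (-0.51), Mmrn1 (-0.90) and Hmcn1 (hemicentin 1, -0.62). Mmrn1 was low and overlapped between the genotypes, at 0.687 to 1.12 CPM in K14;Nogo-A against 1.06 to 1.95 CPM in wild-type. Of 12 tested other proteoglycans and link proteins 10 had a negative fold change, with a median of -0.23, and Hapln4 was lower at the thresholds (-1.09). Hapln4 was also low and overlapped, at 0.488 to 2.72 CPM in K14;Nogo-A against 2.27 to 2.98 CPM in wild-type. Of 20 other crosslinkers and fiber-processing enzymes 15 had a negative fold change, with a median of -0.35, and Adamts2, which trims procollagens (-0.54), and P4ha3, a prolyl hydroxylase subunit (-0.55), were lower at the thresholds.

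Promoter windows are shown for the members lower in K14;Nogo-A at an unadjusted p of 0.05 or less for which the RefSeq table (GRCm38.p6) has a window free of annotated exons, so that the letters before their starts can be set side by side. The table has a window for 26 of the 40 members, and the letters of 6 motifs were searched in the 250 bases before each start on both strands. Capitals mark the matches found. Tnc (chr4:64047016-64047265, minus strand) holds the letters TATAA, as in a TATA box, beginning 126 bases before the start. The letters GGGCGG of an Sp1 box begin 167 bases before it. Ogn (chr13:49607765-49608014, plus strand) holds TATAA letters far upstream, where 2 overlapping matches on opposite strands make up the first run of capitals, and GGAATG, a TEAD site. Bgn (chrX:73483351-73483600, plus strand) holds the Sp1 box on the opposite strand 3 times, the last 2 overlapping, close to the start.
Tnc: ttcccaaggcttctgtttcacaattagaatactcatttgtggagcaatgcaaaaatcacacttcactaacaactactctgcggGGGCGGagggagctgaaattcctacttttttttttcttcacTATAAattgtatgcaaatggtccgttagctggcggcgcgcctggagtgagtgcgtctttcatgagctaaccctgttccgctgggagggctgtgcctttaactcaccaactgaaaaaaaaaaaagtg
Ogn: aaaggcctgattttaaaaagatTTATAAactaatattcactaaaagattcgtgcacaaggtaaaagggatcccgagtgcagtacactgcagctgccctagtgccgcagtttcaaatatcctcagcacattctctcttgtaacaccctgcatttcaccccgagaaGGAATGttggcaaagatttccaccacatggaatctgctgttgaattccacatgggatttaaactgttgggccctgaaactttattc
Bgn: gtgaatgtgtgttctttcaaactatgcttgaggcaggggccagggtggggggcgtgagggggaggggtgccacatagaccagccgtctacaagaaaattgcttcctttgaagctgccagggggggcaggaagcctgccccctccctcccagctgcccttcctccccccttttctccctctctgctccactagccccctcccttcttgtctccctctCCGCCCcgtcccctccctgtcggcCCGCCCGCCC

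GGGCGG was found in 15 of the 26 members (57.7%), against 35.4% of all 27025 genes with a window. TATAA was found in 5 members (19.2%), against 25.8% of all genes, CCAAT in 10 (38.5%), against 37.5%, and GGAATG in 4 (15.4%), against 14.4%. The AP-1 letters TGANTCA and the cAMP response element TGACGTCA were found in 1 member each (3.85%), against 7.82% and 1.77% of all genes. These matches describe the letters of the windows, and no binding was measured.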

How the data were processed

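The authors isolated RNA from the incisor epithelium and deposited raw counts per Ensembl gene for each library. Per the submitters' processing notes bcl2fastq 2.19, Trimmomatic, STAR 2.7.1 and featureCounts were used with GRCm38, whereas the paper names fastp for trimming, and whether counting used strand is not stated in any source. Symbols were taken from GENCODE M21 (25664 of 25700 IDs, the others holding 0.0348% of counts). The filter kept 14791 genes that reached 10 counts in 50% or more of the K14;Nogo-A or of the wild-type libraries. K14;Nogo-A was compared with wild-type in edgeR 4.0.16 (R 4.3.3) with TMM factors and the robust quasi-likelihood test, without covariates, with Benjamini-Hochberg adjustment over all genes tested. Standard errors are the fold change divided by the root of F. CPM used TMM library sizes, and log2 CPM a prior count of 2. The study's fold threshold of 0.5 was read on the log2 scale.

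The members and lists were chosen with earlier results of these data known. Values in every library are given for members called, members past the thresholds of the study, the 3 smallest p-values and the highest level per kb of each class, and positive fold changes of at least 0.2 on the log2 scale. Dcn, Postn, Thbs1, Fbln2, Eln and Mfap4 were added after their values were seen. Alternatives were RLE and upper-quartile factors, 2 other filters, the likelihood-ratio test, DESeq2 1.42.0, limma-voom (limma 3.58.1), a term for Y-linked transcripts, no limit on the fold change and each library left out in turn. Replicates are separate pups, and every pair of libraries differed by more than sampling noise.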

Additional observations from a re-analysis of the deposited data

Results flagged for a closer look

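In 4 of 39 tested members 1 of the 4 K14;Nogo-A libraries lay far from the others by Dixon's test at the 95% level. Chance alone gives about 1 in 20 independent groups. The members share the same 4 libraries and are not independent, so their count cannot be set against that rate. The value in brackets is the gap to the nearest other library as a share of the group's range. The library was replicate 1 each time. It was the lowest of its genotype in Eln (0.907), Thbs2 (0.878) and Mfap4 (0.854), and the highest in Hapln1 (0.899). Without it the log2 fold change was -0.04 in Eln, -0.18 in Thbs2, -0.25 in Mfap4 and -1.05 in Hapln1.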

How the results depend on the processing

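Fn1 kept its direction under all 15 alternatives (log2 fold change -0.87 to -0.75, adjusted p 2.55e-10 to 0.188). The count of members called as lower was 4 with the likelihood-ratio test (Emilin1, Fbn1, Fbn2 and Fn1) and 5 with DESeq2 (Hapln1 in addition), which called 0.73% and 1.05% of all genes as lower, and 1 with limma-voom. Mgp was not past the thresholds of the study, leaving 0 members higher, with no filter on low counts, with limma-voom and with Y-linked transcripts as a term, and it did not pass without any 1 library other than K14;Nogo-A replicate 1. With 1 library left out, 0 to 4 members were called as lower and 0 to 1 as higher, 6 to 10 were lower at the thresholds of the study and 0 to 1 higher, and the median fold change was -0.36 to -0.24. The counts of 4 lower and 1 higher came without K14;Nogo-A replicate 1, the count of 2 when wild-type replicate 9 was absent, and 0 when any of the others was. At the thresholds of the study 6 members were lower when K14;Nogo-A replicate 10 was left out, and likewise for wild-type replicate 8, and Thbs1 took the place of Mgp as higher without wild-type replicate 3. The mesenchyme difference was -0.33 to -0.23 (exact permutation p 0.0667 to 0.1, the smallest that 6 libraries allow).

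Of 390 values of single members, 336 kept their direction and side of the thresholds, 37 no longer passed, 11 newly passed and 6 changed sign. These were Agrn (-0.050), Fbln2 (-0.055) and Thbs1 (0.15) with the Y-linked term, Thbs1 with limma-voom (0.049) and without wild-type replicate 3 (0.92), and Mfap2 without K14;Nogo-A replicate 1 (0.013). With 1 library left out Thbs1 ranged over -0.71 to 0.92 and Mfap2 over -0.14 to 0.013. The causes were not tested. The paper calls the controls littermates, but the replicate numbers do not tell which pups shared a litter, so no paired analysis was run. Members with few counts (Acan, Prelp, Aspn, Mfap5) are the least precise.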
